A study of Homo sapiens with 6 samples.

Results

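The genes described here encode ubiquitin-conjugating enzymes (E2) and the anaphase-promoting complex (APC/C). They were chosen by name. Every gene whose symbol starts with UBE2 or ANAPC was taken, together with CDC16, CDC20, CDC23, CDC26, CDC27, FZR1 and FBXO5, and antisense genes and pseudogenes were left out. This gave 40 of the 14884 genes with a named probeset, 23 of them E2 genes and 17 of them APC/C genes. The 17 APC/C genes comprise 14 core subunits, the activators CDC20 and FZR1 and the inhibitor FBXO5. RefSeq lists 52 protein-coding genes that fit these names, and 12 of them had no named probeset and were not analysed here, UBE2C, UBE2D1, UBE2D3, UBE2F, UBE2L3 and UBE2M among them.

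Ubiquitin is passed from an E1 to an E2 and is placed on a protein with the help of an E3 ligase. The APC/C is the E3 ligase that marks securin and mitotic cyclins for destruction, first with CDC20 as its activator during mitosis and later with FZR1 (also called CDH1) at mitotic exit and in G1. FBXO5 (also called EMI1) holds the APC/C inactive through S phase and G2, UBE2C starts ubiquitin chains on its substrates, and UBE2S lengthens them.

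Expression was measured in U87 cells, a line derived from a human glioblastoma, on 6 Affymetrix Human Gene 2.0 ST arrays. One group was transduced with lentivirus to knock down ZNF768 (ZNF768 depleted cells, 3 biological replicates) and the other was labelled control (3 biological replicates). The series describes lentiviral transduction and puromycin selection, with RNA taken 96 h after infection. The labels name neither the hairpin nor the construct of the control cells, and 1 cell line at 1 time point was examined. Values are log2 Robust Multichip Average (RMA) values, so that a difference of 1 is a 2-fold change and no background level is known for a probeset. ZNF768 itself, the targeted zinc finger gene, read 7.02, 7.14 and 7.31 in ZNF768 depleted cells, against 8.49, 8.54 and 8.54 in control cells, and fell to 38.8% of control (log2 fold change -1.36, standard error 0.0851, limma adjusted p = 0.00015).

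Array medians lay between 6.40 and 6.44. Pearson correlations across probesets were 0.992 to 0.994 within the groups and 0.977 to 0.980 between them, and no array stood apart. Of the glial marker genes, 8 of 9 had a named probeset. VIM and CD44 read between 10.30 and 11.77 on every array, while the astrocyte gene GFAP and the glial factor OLIG2 read between 6.60 and 7.24, a little above the array medians, and S100B, SOX2 and AQP4 read between 5.33 and 6.09, under the median of each array. NES, VIM and CD44 fell, no glial gene rose, and the other glial genes measured were not past the test. The summed level of the 8 genes on the linear scale was 3932 to 4178 in ZNF768 depleted cells and 6316 to 6405 in control cells. Most of this sum came from VIM and CD44. All 10 proliferation markers fell, with a median log2 fold change of -1.67, and their summed level on the linear scale was 4136 to 4316 in ZNF768 depleted cells and 14618 to 14687 in control cells. Of 6 housekeeping genes, TBP (-0.25) and PPIA (-0.30) fell, GAPDH, HPRT1, B2M and PGK1 were not past the test, and none rose. The call of TBP was lost when any array other than knockdown replicate 3 was left out (-0.26 to -0.22), and that of PPIA without knockdown replicate 1 (-0.26) or control replicate 1 or 3 (-0.28). Because whole cultures were measured, fewer dividing cells and less of an RNA per cell cannot be told apart in any value given here. Of the 6 measured of 10 listed myeloid genes, CD68 (-3.11) and CSF1R (-0.50) fell and none rose, and the call of CSF1R was lost without knockdown replicate 3 or any control replicate (-0.56 to -0.46). The summed level was 1208 to 1312 in ZNF768 depleted cells and 7194 to 7372 in control cells, most of it from CD68, a lysosomal gene. KDR (-0.87) of 3 measured endothelial genes and MAP2 (-0.45) of 2 measured neuronal genes fell, and none of 3 measured epithelial genes changed past the test. The part of any of these lists in the results below was not tested.

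Of the 40 genes, 9 rose and 10 fell, while 21 stayed short of the test's threshold (limma adjusted p under 0.05), and the median log2 fold change was -0.00. Over all 14884 named genes 33.4% were called, 16.6% rising and 16.8% falling, with a median of 0.04. At or above the median probeset level, 19 of 38 E2 and APC/C genes were called, against 44.3% of all genes there, so the share of changed genes was near the background. The groups did not overlap for 24 of the 40 genes, against 51.5% of all genes and 64.6% of those at or above the median level. What stood out in size was a small set. CDC20, FBXO5, UBE2T, ANAPC1 and CDC23 fell at least 2-fold and no gene of the family rose that far, where 4.59% of all genes changed at least 2-fold, 3.37% falling and 1.22% rising. At or above the median level 4.55% of genes fell that far. These 5 genes and the other 5 that fell kept their call under each of the 17 other settings and sample sets tried at the same threshold.

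**Figure D1:**
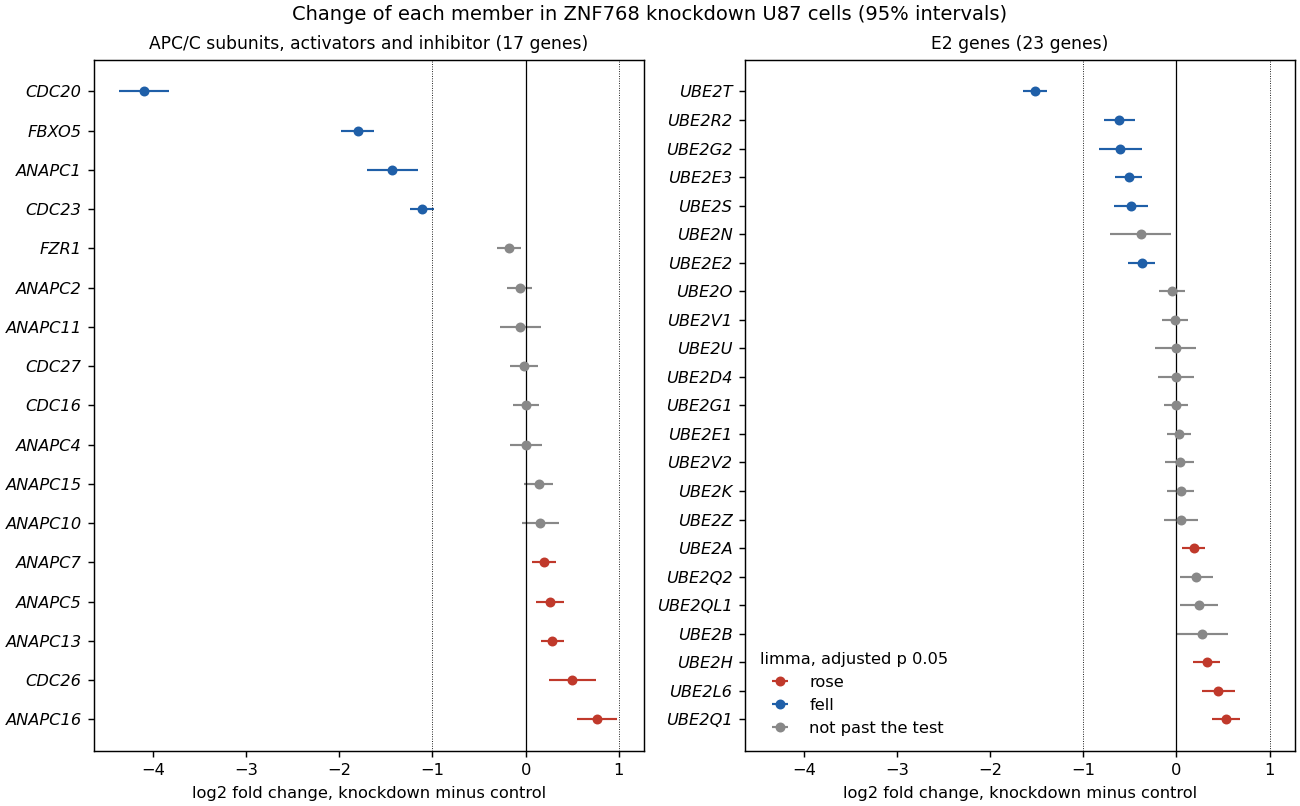
Change of each of the 40 genes, as the log2 fold change of ZNF768 depleted cells minus control cells (x axis) with its 95% interval from limma (n = 3 arrays per group), with APC/C genes on the left and E2 genes on the right. CDC20 lies far to the left at -4.10, 4 further genes lie below -1, and no gene reaches 1 (dotted lines mark a 2-fold change).

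The activators and the inhibitor of the APC/C differed widely in their change. CDC20 (probeset 16663514) read 7.001, 7.366 and 7.003 in ZNF768 depleted cells, against 11.23, 11.26 and 11.17 in control cells. Every depleted array thus lay more than 3 log2 units below every control array, and its level was 5.85% of that in control cells (-4.10 on the log2 scale with a standard error of 0.110, adjusted p = 9.52e-06). FZR1 (probeset 16856959), the activator of late mitosis and G1, read 9.67, 9.59 and 9.61 in ZNF768 depleted cells, against 9.81, 9.82 and 9.79 in control cells. The groups did not overlap, but the difference was small (-0.18, 95% interval -0.31 to -0.05) and did not pass the test (adjusted p = 0.0566). It passed under 6 of the 17 other settings, such as cyclic loess (-0.21, adjusted p = 0.0357) and the fit of named probesets only (adjusted p = 0.0198). FBXO5 (probeset 17024980), the inhibitor, read 7.32, 7.13 and 7.34 in ZNF768 depleted cells, against 9.03, 9.09 and 9.09 in control cells. It fell to 28.6% of control without overlap (-1.80, standard error 0.0744, adjusted p = 3.76e-05).

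Set against each other on the same arrays, CDC20 fell further than FZR1 (log2 difference -3.91, 95% interval -4.22 to -3.61) and further than FBXO5 (log2 difference -2.29, 95% interval -2.69 to -1.89). Both within-array differences separated the groups completely. With 3 arrays per group the two-sided exact permutation test cannot go below p = 0.1, which both reached (adjusted p = 0.14 over the 7 pairs compared).

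**Figure D2:**
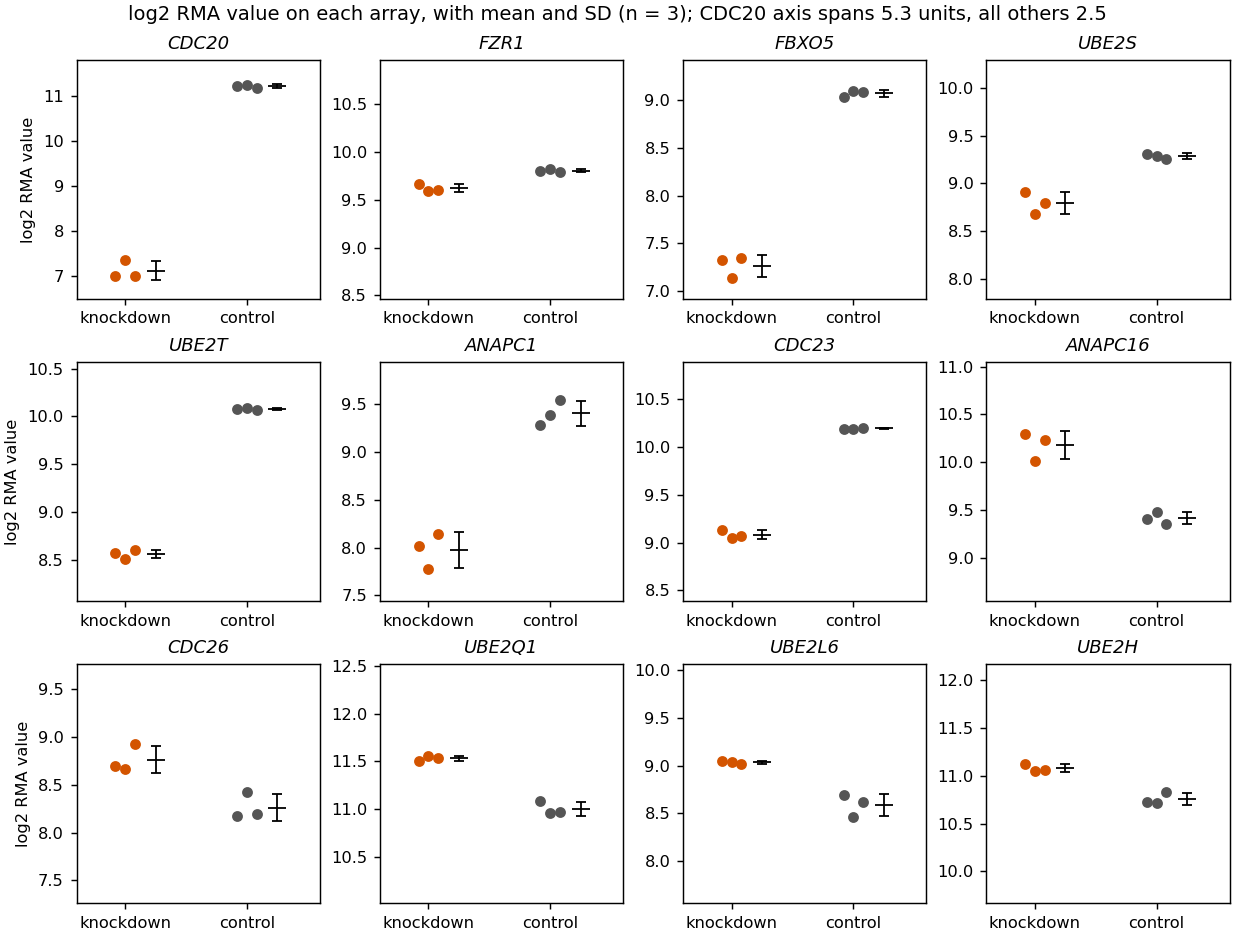
log2 RMA values (y axis) of 12 genes on each array, ZNF768 depleted cells on the left and control cells on the right of each panel, with the mean and SD (n = 3). The panel of CDC20 spans a longer axis than the others, and in all 12 panels the points of the groups do not overlap.

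The 14 core subunits held 5 genes that rose, 2 that fell and 7 short of the threshold, and their median was 0.07. These were 35.7% rising and 14.3% falling, against 16.6% and 16.8% of all named genes. At or above the median probeset level 21.7% of all genes rose and 22.6% fell. Some of the 5 rises lost their call when single arrays were left out, as given below. ANAPC1 (probeset 16901830), the largest scaffold subunit, read 8.02, 7.77 and 8.14 in ZNF768 depleted cells, against 9.28, 9.39 and 9.54 in control cells, and fell to 37.1% of control (-1.43, standard error 0.115, adjusted p = 0.000365). Array spread was wide for this gene in both groups, yet the groups lay more than 1 log2 unit apart. The pseudogenes ANAPC1P1 and ANAPC1P2, which were left out of the 40, had log2 fold changes of -0.48 (fell, adjusted p = 0.0445) and 0.12 (not past the test), and whether probes for the gene also bound their RNA was not tested. The call of ANAPC1P1 was lost when any array other than knockdown replicate 2 was left out (-0.52 to -0.35). CDC23 (probeset 17000404), a subunit built of tetratricopeptide repeats, read 9.13, 9.05 and 9.07 in ZNF768 depleted cells, against 10.19, 10.19 and 10.20 in control cells, and fell to 46.3% (-1.11, standard error 0.0536, adjusted p = 6.11e-05). No other repeat subunit fell past the test. CDC16 was at 0.00 and CDC27 at -0.01, neither past the test, and ANAPC7 rose by 0.19.

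The largest rise of the family was that of ANAPC16 (probeset 16705942), a small subunit of the complex. It read 10.30, 10.01 and 10.23 in ZNF768 depleted cells, against 9.41, 9.48 and 9.35 in control cells, a 1.70-fold rise without overlap (0.77, standard error 0.0891, adjusted p = 0.00153). CDC26 (probeset 17097423), a small subunit that binds and stabilises CDC16, read 8.70, 8.67 and 8.93 in ZNF768 depleted cells, against 8.17, 8.42 and 8.20 in control cells (0.50, standard error 0.104, adjusted p = 0.0162). The lowest depleted array lay above the highest control array, but the call of CDC26 was lost without control replicate 1 (0.45, adjusted p = 0.054) and without control replicate 3 (0.47, adjusted p = 0.0597). CDC26 exceeded CDC27 in its change by 0.52 (95% interval 0.23 to 0.81, exact permutation p = 0.1, the smallest possible).

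The remaining core subunits moved less. ANAPC13, another small subunit, rose by 0.29 and kept its call in all 17 settings. ANAPC5, a platform subunit, rose by 0.26, and its call was lost when any array other than knockdown replicate 2 was left out (0.22 to 0.28). ANAPC7 lost its call when any single array was left out (0.17 to 0.21). Without control replicate 1 or control replicate 3 the number of APC/C genes that rose was 2, and it was 3 without control replicate 2, knockdown replicate 1 or knockdown replicate 3. The catalytic pair of the complex, the cullin-like ANAPC2 (-0.07) and the RING subunit ANAPC11 (-0.06), did not pass the test. Neither did ANAPC4 (0.01), a platform subunit, ANAPC10 (0.16), which helps to bind substrates, or ANAPC15 (0.14), which acts in the release of the checkpoint complex. The 95% intervals of the 8 APC/C genes that did not pass the test, FZR1 among them, ran from -0.31 to 0.35.

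**Figure D3:**
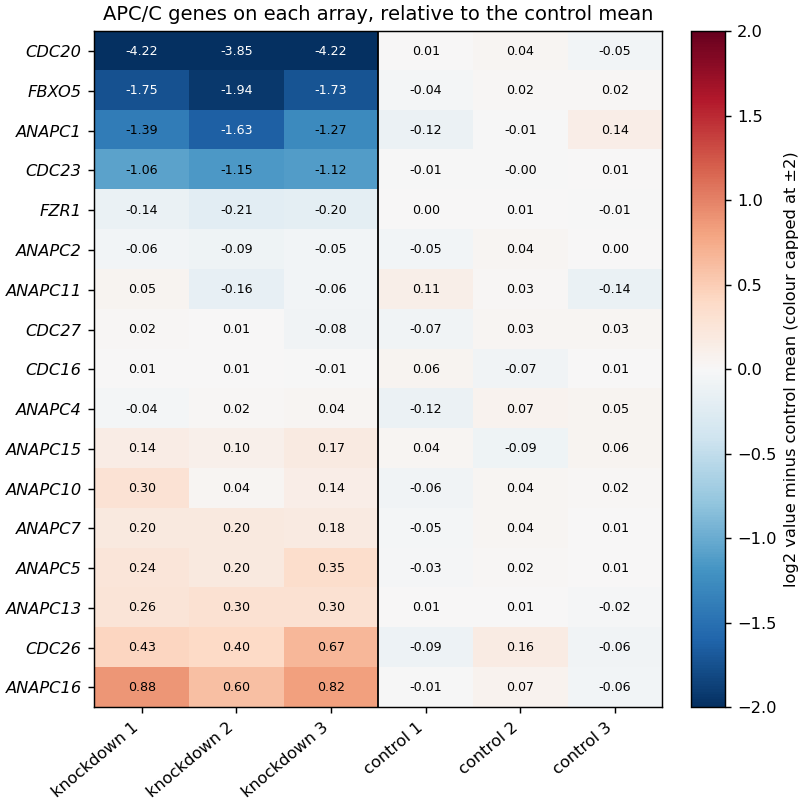
The 17 APC/C genes (rows) on each array (columns, ZNF768 depleted cells left of control cells), as the log2 value minus the mean of the control arrays; the colour is capped at 2 in both directions and the cells print the value. Only the top 4 rows fall below -1 on all 3 depleted arrays, CDC20 reaching -4.22, -3.85 and -4.22, while ANAPC16 lies between 0.60 and 0.88.

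The 23 E2 genes split into 4 that rose, 6 that fell and 13 short of the threshold. This was 43.5% called, against 33.4% of all named genes and 44.3% of those at or above the median level. The share of changed E2 genes was thus near the background. UBE2T (probeset 16698023), which ubiquitinates FANCD2 in the Fanconi anaemia pathway of DNA crosslink repair, was the E2 gene with the largest change. It read 8.57, 8.51 and 8.60 in ZNF768 depleted cells, against 10.07, 10.09 and 10.06 in control cells, and fell to 34.9% of control (-1.52, standard error 0.0544, adjusted p = 2.28e-05). UBE2S (probeset 16875763), the chain-extending E2 of the APC/C, read 8.91, 8.68 and 8.80 in ZNF768 depleted cells, against 9.31, 9.29 and 9.25 in control cells. Its groups did not overlap and it fell to 71.3% of control (-0.49, standard error 0.074, adjusted p = 0.00451). Its chain-initiating partner UBE2C had no named probeset, so the pair was not compared.

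No other measured E2 gene of DNA repair and damage tolerance fell past the test. UBE2N, which builds chains with UBE2V1 or UBE2V2, read 6.21, 5.80 and 6.10 in ZNF768 depleted cells, against 6.46, 6.23 and 6.57 in control cells. The groups only just failed to overlap, and the gene did not pass the test (-0.38, adjusted p = 0.1) except under 3 of the other settings. UBE2T fell further than UBE2N moved (log2 difference -1.14, 95% interval -1.46 to -0.82, exact permutation p = 0.1). The partners UBE2V1 (-0.02) and UBE2V2 (0.03) did not pass the test, and the difference between them was -0.05 (95% interval -0.24 to 0.14, exact permutation p = 0.6). The RAD6 paralogs UBE2A and UBE2B, which act on histone H2B and PCNA, were 0.19 and 0.28. UBE2A rose, but its call was lost when any single array was left out (0.18 to 0.20). UBE2B did not pass the test except without control replicate 2 (0.39, adjusted p = 0.0312), and the paralogs differed by -0.09 (95% interval -0.35 to 0.17, exact permutation p = 0.6).

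Of the 2 measured E2 genes grouped here under degradation at the endoplasmic reticulum, UBE2G2 fell by 0.60 while its relative UBE2G1 was at -0.00 (not past the test). UBE2R2, a relative of CDC34 that works with SCF ligases, fell by 0.62, UBE2E3 by 0.51 and UBE2E2 by 0.37. Their family member UBE2E1 was at 0.03, and the change of UBE2E1 exceeded that of UBE2E3 by 0.54 (95% interval 0.41 to 0.66, exact permutation p = 0.1). The E2 genes that did not pass the test, UBE2N and UBE2B included, had 95% intervals from -0.71 to 0.55. They also held UBE2K (0.05), UBE2Z (0.05), UBE2O (-0.05), UBE2D4 (-0.00), UBE2Q2 (0.21), UBE2QL1 (0.24) and UBE2U (-0.01), the last at about 3.83 on the arrays of both groups. UBE2Q2 passed as a rise under 5 of the 17 other settings and UBE2QL1 under 4.

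The E2 genes that rose were modest in size and, apart from UBE2A, steady across settings. UBE2Q1 (probeset 16693789) read 11.50, 11.56 and 11.54 in ZNF768 depleted cells, against 11.09, 10.96 and 10.97 in control cells (0.53, standard error 0.0619, adjusted p = 0.00159). UBE2L6 (probeset 16738544), the E2 for the interferon-induced modifier ISG15, read 9.05, 9.04 and 9.02 in ZNF768 depleted cells, against 8.69, 8.46 and 8.61 in control cells (0.45, standard error 0.0733, adjusted p = 0.0062). UBE2H (probeset 17062811), the E2 of the CTLH ligase, read 11.13, 11.05 and 11.06 in ZNF768 depleted cells, against 10.73, 10.71 and 10.83 in control cells (0.32, standard error 0.0609, adjusted p = 0.0111). None of these 3 genes overlapped between the groups. Without control replicate 1 or control replicate 3, 5 of the 40 genes rose in place of 9.

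Promoter sequence is shown for the 5 genes that fell at least 2-fold and for ANAPC16, the gene with the largest rise, since 4 of the 5 hold repeated CCAAT letters, which the choice by name did not use. The 200 bases before the RefSeq start (GRCh38.p14), printed 5′ to 3′ on the strand of the gene, are chr1:43358781-43358980 on the plus strand for CDC20, chr6:152983042-152983241 on the minus strand for FBXO5, chr1:202341937-202342136 on the minus strand for UBE2T, chr5:138213324-138213523 on the minus strand for CDC23, chr2:111884194-111884393 on the minus strand for ANAPC1 and chr10:72215812-72216011 on the plus strand for ANAPC16. RefSeq lists 2 starts for FBXO5, and the start shown is the one with matches. The window of the other start holds none of the motifs searched. Capitals mark matches on either strand to CCAAT (the letters bound by NF-Y), TTTGAA or TTCGAA (the cell cycle homology region letters bound by DREAM and MuvB complexes) and TTTGGCGC, TTTCCCGC or TTTCGCGC (letters bound by E2F factors), so ATTGG is CCAAT and TTCAAA is TTTGAA read on the opposite strand.
CDC20: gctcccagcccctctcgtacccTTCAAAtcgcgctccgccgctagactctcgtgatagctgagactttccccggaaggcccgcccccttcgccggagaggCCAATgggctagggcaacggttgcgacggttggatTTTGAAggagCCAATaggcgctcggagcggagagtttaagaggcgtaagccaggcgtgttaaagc
FBXO5: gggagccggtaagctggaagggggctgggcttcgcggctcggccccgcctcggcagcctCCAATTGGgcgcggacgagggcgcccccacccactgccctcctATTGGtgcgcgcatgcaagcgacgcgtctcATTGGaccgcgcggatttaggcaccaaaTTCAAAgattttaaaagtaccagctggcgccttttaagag
UBE2T: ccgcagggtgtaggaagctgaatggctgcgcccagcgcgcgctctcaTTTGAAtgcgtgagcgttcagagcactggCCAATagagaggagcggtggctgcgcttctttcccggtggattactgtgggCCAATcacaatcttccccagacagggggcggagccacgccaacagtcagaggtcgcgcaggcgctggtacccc
CDC23: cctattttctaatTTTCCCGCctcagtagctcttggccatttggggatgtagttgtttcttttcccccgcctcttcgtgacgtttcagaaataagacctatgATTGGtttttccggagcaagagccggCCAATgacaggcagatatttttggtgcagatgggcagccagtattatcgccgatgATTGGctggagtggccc
ANAPC1: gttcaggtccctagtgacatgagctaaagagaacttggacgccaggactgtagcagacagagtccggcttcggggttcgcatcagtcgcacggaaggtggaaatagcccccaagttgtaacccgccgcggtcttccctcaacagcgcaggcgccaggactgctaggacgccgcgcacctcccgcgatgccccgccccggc
ANAPC16: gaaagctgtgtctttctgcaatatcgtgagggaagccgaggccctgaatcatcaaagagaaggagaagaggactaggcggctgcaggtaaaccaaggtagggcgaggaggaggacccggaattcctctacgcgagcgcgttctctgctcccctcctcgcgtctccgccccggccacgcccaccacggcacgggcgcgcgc

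In CDC20 the CCAAT matches start 100 and 55 bases before the transcription start (positions -100 and -55), and TTTGAA starts 10 bases upstream of the nearer one at -65. In UBE2T they start at -124 and -73, with TTTGAA at -153. FBXO5 has CCAAT or its complement at -141, -138, -98 and -68, the first of which overlap, and TTTGAA on the opposite strand at -40. CDC23 holds 3 CCAAT matches at -98, -72 and -17 and the only E2F-like letters of the printed set, TTTCCCGC at -187. CDC16, which did not pass the test, holds the same letters at -74. E2F-like letters were held by 1 of the 5 genes that fell at least 2-fold and 1 of the other 31 matched genes. No match falls in the printed stretch of ANAPC1, whose TTTGAA lies downstream of the start at 38, or in that of ANAPC16.

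Over the longer window of 250 bases before to 50 after the start, 36 of the 40 genes matched a RefSeq promoter, and UBE2B, UBE2H, UBE2Q1 and UBE2V2 did not. Of the 5 genes that fell at least 2-fold, 4 held at least 2 CCAAT matches that do not overlap (CDC20, FBXO5, UBE2T and CDC23) and 4 held TTTGAA. Of the other 31 genes, 2 held at least 2 CCAAT matches (UBE2U and ANAPC15, neither past the test) and 4 held TTTGAA. For the 7 matched genes that rose these counts were 0 and 1. The plan for the search named the letters and set no number of matches. At least 1 CCAAT match was held by 4 of the 5 genes, 10 of the other 31 and 1 of the 7 that rose. Of all genes with a listed promoter 39.7% held CCAAT in a window. Taken over all genes with a listed promoter, 12.8% had at least 2 CCAAT matches and 18.2% had TTTGAA in a window, while of all 35116 windows 34.6% held CCAAT, 15.2% TTTGAA, 1.45% TTCGAA, 0.652% TTTGGCGC, 1.63% TTTCCCGC and 0.515% TTTCGCGC. A match of letters is not a measured binding site, and the count was not tested.

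Genes around the APC/C were described from lists written by role, with earlier results of these data known. For comparison with each list below, 16.6% of all named genes rose, 16.8% fell and 3.37% fell at least 2-fold. At or above the median probeset level these shares were 21.7%, 22.6% and 4.55%. The listed inhibitors of the APC/C and checkpoint genes all had a named probeset, and of these 10 genes 8 fell, 5 of them at least 2-fold, and 1 rose (median -0.89). Not all are inhibitors, since TRIP13 (-0.60) and MAD2L1BP (-0.55), which both fell, are known to take the checkpoint complex apart. The checkpoint kinases BUB1 (-4.60) and TTK (-3.20) and the checkpoint proteins MAD2L1 (-2.64) and BUB1B (-1.44) had the largest falls, FBXO43 (-1.17), an inhibitor known from meiosis, also fell at least 2-fold, and MAD2L2, a relative of MAD2L1, rose by 0.33. BUB1B read 7.25, 8.09 and 8.42 in ZNF768 depleted cells and the same value, 9.36, on all 3 control arrays. Its standard error (0.281) was the largest of the list, and its limma adjusted p (0.0128) reached 0.0484 with single arrays left out. The known APC/C substrates had the lowest median of the lists. All 26 measured of 36 listed substrates fell, 23 of them at least 2-fold (median -2.82), with BUB1, TOP2A (-4.30), the cohesin protector SGO1 (-4.26) and the spindle protein HMMR (-4.23) at the head. CDC20 (-4.10) fell about as far as the substrates at the head of the list. The median of the core subunits that act on these substrates was 0.07, with ANAPC1 (-1.43) and CDC23 (-1.11) falling and 5 core subunits rising. The checkpoint and substrate lists both hold cell cycle genes and share BUB1, and TOP2A is also among the proliferation markers. The summed level of those markers was lower in ZNF768 depleted cells as given above, and a tie between the lists was not tested.

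The SCF ligase, the other major cell cycle E3, had 9 of 15 listed genes measured. Of these 6 fell, none rose and 3 stayed short of the threshold (median -0.39). The largest falls were those of CKS1B (-1.32), a substrate-binding cofactor, CAND1 (-0.93), an exchange factor of the ligase, CCNF (-0.75) and BTRC (-0.56), both F-box proteins. Further E1, E2 and modifier genes were spread around 0. With 21 of 28 listed genes measured, 5 rose, 6 fell and 10 were short of the threshold (median 0.02). The ubiquitin gene UBB fell by 0.94, though its call was lost without knockdown replicate 2 (-0.89, adjusted p = 0.0628), control replicate 2 (-0.89, adjusted p = 0.061) or control replicate 3 (-0.93, adjusted p = 0.0557). UBA3, a part of the E1 for NEDD8, fell by 0.62 and CDC34, the E2 of SCF ligases, by 0.42, while UFM1, another ubiquitin-like modifier, rose by 0.54. The other 4 that rose were ATG3 (0.41), an E2-like enzyme of autophagy, AKTIP (0.38), UFC1 (0.28), the E2 for UFM1, and ISG15 (0.33), the modifier that UBE2L6 carries. The call of ISG15 was lost when any single array was left out (0.24 to 0.38) and that of UFC1 without knockdown replicate 1 (0.25) or control replicate 2 (0.28).

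**Figure D4:**
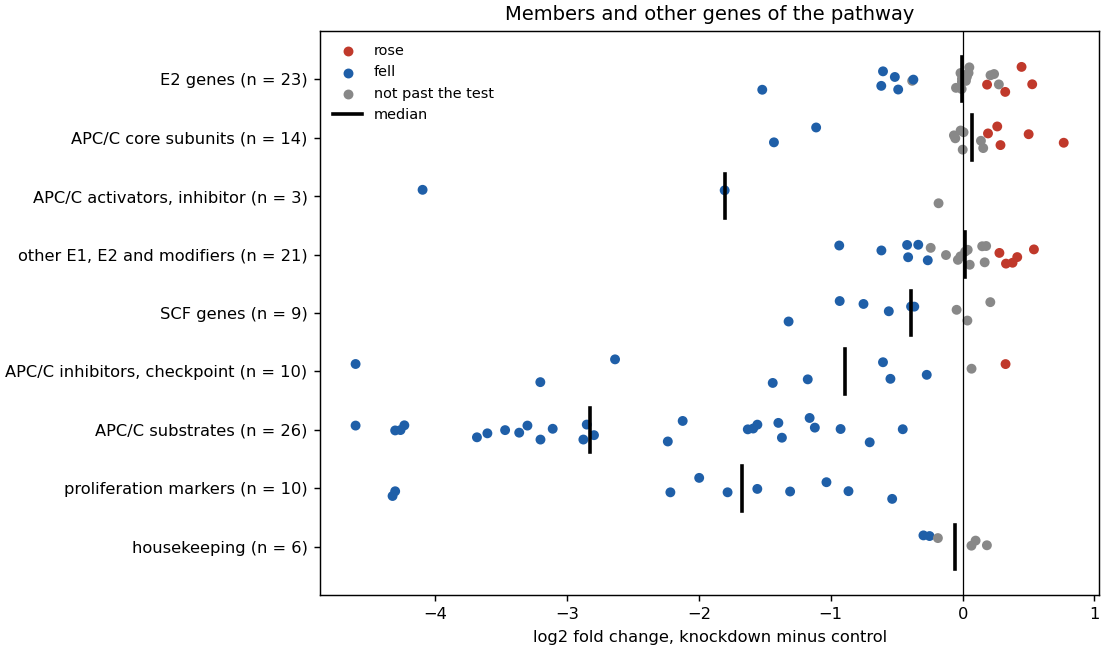
log2 fold change (x axis, ZNF768 depleted cells minus control cells) of every measured gene, 1 point each, in the E2 and APC/C groups and in the lists of related genes (rows); the bar marks the median of each group and the colour the limma call. E2 genes and core subunits lie around 0 with medians of -0.00 and 0.07, while the checkpoint list and the substrates of the APC/C have medians of -0.89 and -2.82.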

How the data were processed

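U87 cells of 2 groups (3 arrays each) were profiled on Affymetrix Human Gene 2.0 ST arrays. The deposited values are log2 RMA values that the authors made with the oligo package, which corrects the background, brings the arrays to 1 distribution and summarises the probes of a probeset. Tool versions are not given in the sources used here. Scanner files were not used here, so background and scan batches remain unknown. Precision is limited by the 6 arrays, and p-values weigh a group difference against the spread between these replicates. In limma this spread is moderated, as eBayes draws the variance of each probeset towards a value shared by all probesets.

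Of 53617 probesets, 16098 carried 1 gene symbol in the platform annotation (updated by Entrez identifier), and 37519 were unnamed. Where a gene had several probesets (779 genes), the one with the highest mean over the 6 arrays was used. The groups were compared with limma 3.58.1 in R 4.3.3 (lmFit and eBayes, all probesets, no covariate, two-sided) and p-values were adjusted by the Benjamini-Hochberg method across the 53617 probesets, with 0.05 as the threshold. Standard errors and 95% intervals of single genes are from that fit. Pairs of genes were compared by their within-array difference with an exact permutation test. The 95% intervals of the pairs are from a separate limma fit of the 7 differences alone. The script was tested on simulated data.

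Values on every array were given for UBE2S, CDC20, FZR1 and FBXO5, for genes changed at least 2-fold and for the 5 largest rises. Up to 4 genes per related list were named, with the members of the pairs, the housekeeping genes and ZNF768. The pseudogenes, other cell type markers, FBXO43, TRIP13, MAD2L1BP, MAD2L2, ATG3, AKTIP, UFC1, ISG15 and the array values of UBE2N and BUB1B were added after their values were seen. The genes and lists were chosen with earlier results of these data known. Promoters are those of RefSeq (GRCh38.p14), and the motifs were searched in Python 3.11.15. Alternatives were other normalizations and centrings, filters, variance settings, weights, a replicate block, each array left out and other thresholds.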

Additional observations from a re-analysis of the deposited data

How the results depend on the processing

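The 10 genes that fell and the 5 that fell at least 2-fold were called under every alternative tried at the 0.05 threshold, and no value given in the text changed sign past the test. Of the 9 genes that rose, ANAPC16, UBE2Q1, UBE2L6, UBE2H and ANAPC13 kept their call throughout. Of the 21 genes not past the test 16 kept that side. UBE2U and UBE2N could not be fitted when probesets below the median were left out. The other normalizations and centrings moved log2 fold changes by a median of -0.03 to 0.06 over all probesets. With arrays centred on their own median 3 APC/C genes rose in place of 5. The number of SCF genes that rose was 1 in place of 0 with quantile normalization repeated, centring on 6 housekeeping genes (chosen after seeing the data, since the planned 7 could not be had), probesets at or above the median, named probesets only, the mean of a gene's probesets, and eBayes with trend and robust settings. At an adjusted p of 0.01, 1506 genes rose in place of 2466, and the counts that rose were 4 of the 40 genes, 2 E2 genes, 2 APC/C genes, 3 further E1, E2 and modifier genes and 0 checkpoint genes. At a fold of 1.5, 1 gene of the 40 rose (ANAPC16) and 7 fell. The cause of these moves was not tested beyond the smaller or larger sets fitted.

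With single arrays left out, 5 to 7 of the 40 genes rose, 2 to 4 APC/C genes and 3 to 4 further E1, E2 and modifier genes, while 1873 to 2113 of all genes rose and 1998 to 2271 fell. The labels do not say whether equally numbered arrays were prepared together. Deviations from the group means correlated at -0.07 to 0.02 for equally numbered arrays and at -0.05 to 0.07 for other number pairs. With 3 arrays per group such values cannot settle whether the replicates were paired. With the replicate number as a block, 6 of the 40 genes rose and 11 fell, 3 APC/C genes rose, ANAPC5 (adjusted p = 0.0783), ANAPC7 (adjusted p = 0.131) and UBE2A (adjusted p = 0.135) lost their call, and UBE2N passed (adjusted p = 0.0397). No background level of a probeset was known, which limits what a low value such as that of UBE2U can show.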

Other observations

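Values that belong to no comparison above were those of 4 further left-out pseudogenes and of a second probeset. UBE2MP1 read 9.30, 9.34 and 9.04 in ZNF768 depleted cells, against 8.89, 8.79 and 8.63 in control cells (0.46, adjusted p = 0.0263), while its parent gene UBE2M had no named probeset. Its call was lost without knockdown replicate 1 or 2 or control replicate 2 or 3 (0.39 to 0.47). UBE2DNL (0.02), UBE2NL (-0.18) and UBE2Q2P1 (0.18) did not pass the test. The dimmer probeset of CDC27 read 2.84, 2.89 and 2.44 in ZNF768 depleted cells, against 2.86, 3.00 and 2.84 in control cells (-0.17, adjusted p = 0.401).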
